A study of Arabidopsis thaliana with 12 samples.

Results

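The genes described here act on the polysaccharides of the plant cell wall: 18 expansins, 9 xyloglucan enzymes (XTH), 15 glucanases of glycoside hydrolase family GH9 and 22 members of the TRICHOME BIREFRINGENCE-LIKE (TBL) family of wall acetylation. The rule that chose them uses gene names and no measured value, but they were chosen with earlier results of these data known. The rule takes probe sets annotated to exactly 1 gene whose symbol starts with EXPA, EXPB, EXLA, EXLB, XTH, GH9A, GH9B, GH9C or TBL and a number. It found 64 of the 13350 genes with a probe set of their own, each with 1 probe set. RefSeq holds 126 genes with such symbols, namely 34 expansins, 30 XTH, 21 GH9 and 41 TBL genes, so the 64 are a part of each family. A further 4 probe sets that cover several of these genes were set aside. All 64 members carried the same gene identifier in RefSeq.

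A growing plant cell wall is a network of cellulose microfibrils held in hemicelluloses and pectin. Expansins are wall proteins that let this network slip without cutting it, in the alpha (EXPA) and beta (EXPB) groups, whereas the expansin-like groups EXLA and EXLB are known by sequence. XTH enzymes cut and rejoin the hemicellulose xyloglucan or hydrolyse it. GH9 enzymes are endoglucanases, anchored in the membrane in class A like the cellulose synthesis enzyme KORRIGAN, secreted in class B, and carrying a carbohydrate-binding module in class C. Several TBL proteins add acetyl groups to wall polysaccharides. TBL28, TBL30, TBL32, TBL34 and TBL35 are known to act on xylan and TBL23, TBL25 and TBL26 on mannan. TBL38 is reported as a pectin acetylesterase, so a TBL name alone does not give the activity. In inflorescence stems these proteins serve both elongation and the thickening of walls in xylem and fibres.

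Inflorescence stems of Arabidopsis thaliana were profiled on Affymetrix ATH1 arrays in 4 groups of 3 arrays. Fragments came from 2 places, the very base of the stem and 1.5 to 2 cm above the uppermost rosette leaf within the first internode. At each place wild type of the Columbia ecotype and the wox4-1 mutant were sampled, the latter with a mutant allele of WOX4, a gene known to promote cambium activity. Plants of all groups had 3 weeks of short days with 8 hours of light and then long days with 16 hours, and no other allele or treatment is named. Each array holds RNA of 13 to 17 pooled stems from plants 49 to 58 days old and 15 to 20 cm tall. Because an array measures a mixture of tissues, fewer cells of a type and less RNA per cell cannot be told apart. No probe set is named WOX4 here, so the genotype labels could not be checked on the mutated gene.

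Arrays of 1 group correlated with r between 0.992 and 0.997, and array medians lay between log2 5.56 and 5.71. The actin control probe sets had a 3′ minus 5′ difference of log2 2.26 on wox4-1 internode replicate 2, against 1.22 to 1.51 on the other 11 arrays, and at the base this difference was 1.44 to 1.51 in wild type and 1.22 to 1.33 in wox4-1. Base and internode arrays of wild type with the same replicate number deviated together from their group means (r 0.294 to 0.592), while in wox4-1 the same pairs gave r of -0.05 to 0.240. At the base the actin difference separates the genotypes, so its part there cannot be told apart from genotype. The part of the other differences in the results below was not tested beyond the fits without single arrays or both wild-type replicate 2 arrays and the fits with a replicate block.

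Values are log2 expression values, and a difference of 1 is a 2-fold change. A member was called when limma's moderated test, adjusted by Benjamini-Hochberg over all 22746 probe sets, gave an adjusted p under 0.05. "Rose" and "fell" are used of called members, and SE is the moderated standard error of a log2 difference. The signal of a probe set depends on its probes, so means are used to show where a probe set lies on the scale and not to rank genes. Of the 64 members, 38 had a mean over the 12 arrays of at least log2 4 and 26 lay under it, near the low end of all values (lowest 2.29). This low band held 6 of 18 expansins, 6 of 9 XTH, 8 of 15 GH9 and 6 of 22 TBL genes. The size of a change with a group mean under log2 4 on either side is uncertain, which holds for EXPA24, EXPB1, EXPB5, XTH26, GH9B6 and TBL20 among the called members. In all, 28 members were called in at least 1 of 6 comparisons: 9 expansins, 2 XTH, 6 GH9 and 11 TBL genes. This is 43.8% of the members, against 32.6% of all probe sets called in at least 1 of the 6.

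**Figure D1:**
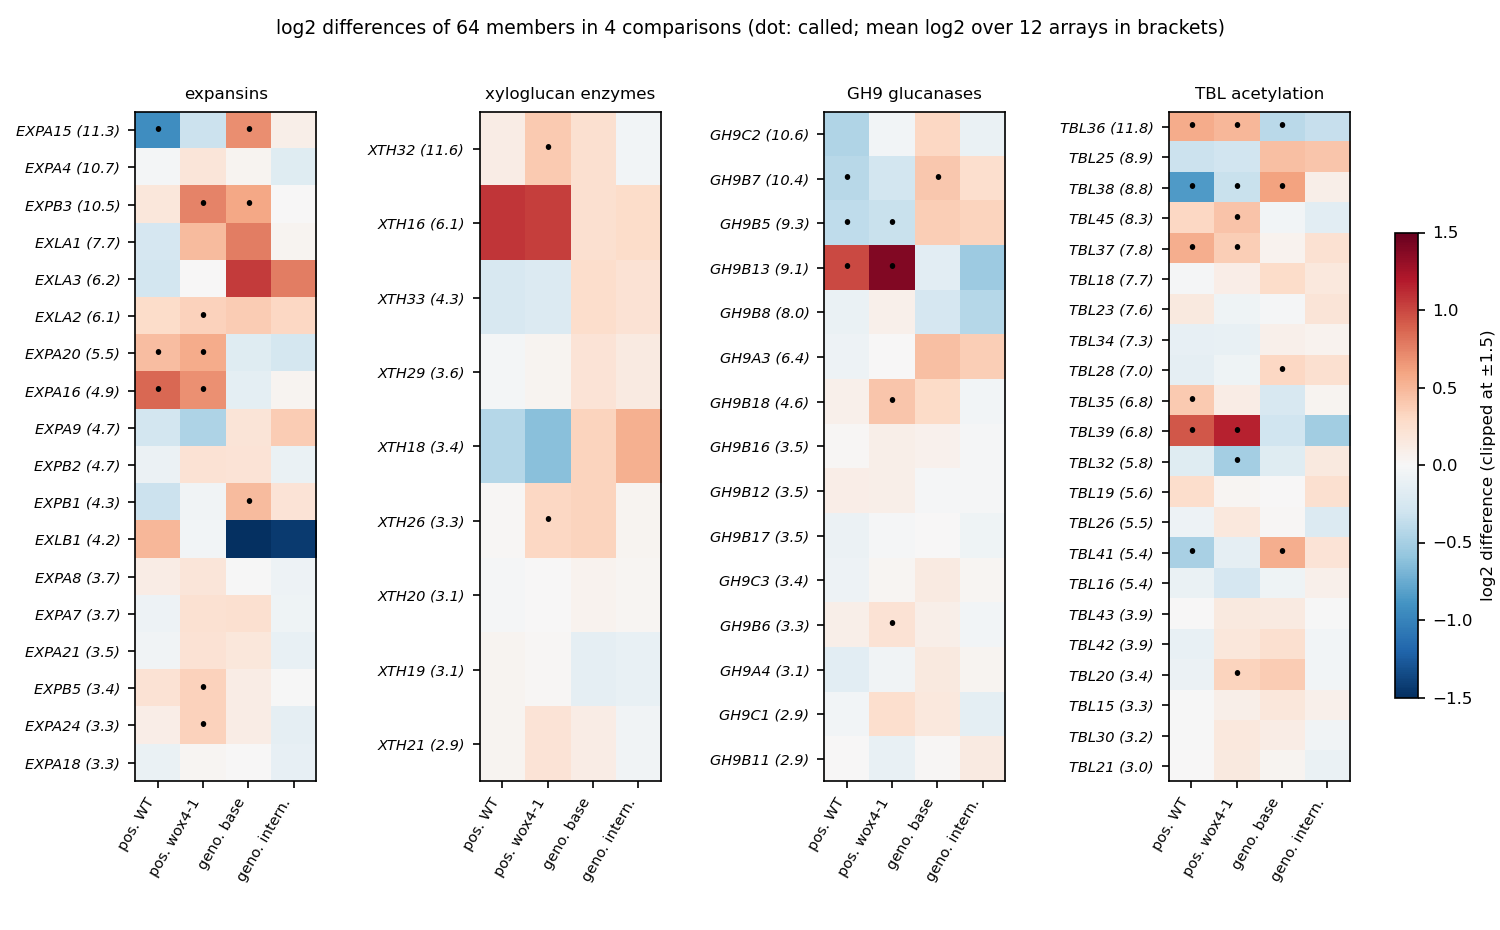
Log2 differences of the 64 members in 4 comparisons (columns: base minus internode in wild type and in wox4-1, wox4-1 minus wild type at the base and in the internode), 1 panel per family, with rows ordered by the mean log2 value over 12 arrays given in brackets. Dots mark called members: 12, 19, 8 and 0 in the 4 columns, and colours are clipped at the ends of the scale, which affects EXLB1 at the base alone.

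The first question was how these families differ between the stem base and the first internode of wild type (3 arrays against 3). Among expansins EXPA16 and EXPA20 rose at the base and EXPA15 fell. In the GH9 family GH9B13 rose about 2-fold while GH9B5 and GH9B7 fell, and in the TBL family TBL35, TBL36, TBL37 and TBL39 rose and TBL38 and TBL41 fell. No XTH gene was called. Together 12 of 64 members (18.8%) were called, 7 higher and 5 lower, against 19.7% of all probe sets, 9.6% higher and 10.1% lower. The share is near the background, and the median difference was -0.03 over the members and 0.01 over all probe sets.

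EXPA15, an alpha-expansin gene, had log2 values of 10.58, 10.39 and 10.80 on the 3 wild-type base arrays and of 11.48, 11.55 and 11.54 in the internode. All base arrays lay under all internode arrays, and the gene fell by 0.93 (SE 0.12, limma adjusted p 0.000122). TBL38, reported from Arabidopsis seeds as a pectin acetylesterase, read 8.25, 8.07 and 8.30 at the base against 9.04, 9.03 and 9.09 in the internode. Its groups were also apart, with a fall of 0.85 (SE 0.11, adjusted p 9.57e-05), the smallest p among the members. TBL41 fell by 0.48 (SE 0.14, adjusted p 0.0293), GH9B7 by 0.42 (SE 0.10, adjusted p 0.00899) and GH9B5 by 0.38 (SE 0.12, adjusted p 0.0351).

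The rises at the wild-type base were led by GH9B13, a secreted endoglucanase, with 9.75, 9.90 and 9.71 at the base and 8.83, 8.64 and 8.93 in the internode. Groups did not overlap, and the rise was 0.99 (SE 0.17, adjusted p 0.00108), or 1.99-fold. TBL39 read 7.19, 7.58 and 7.66 at the base and 6.37, 6.90 and 6.35 in the internode, a rise of 0.93 (SE 0.16, adjusted p 0.00103) in which internode replicate 2 came closest to the base arrays. EXPA16 read 5.63, 5.07 and 5.26 against 4.59, 4.27 and 4.50, and rose 1.82-fold (log2 0.87, SE 0.17, adjusted p 0.00282). These 3 genes thus had at the base 1.82 to 1.99 times the internode signal, and their arrays did not overlap.

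Smaller rises were those of TBL36 (0.56, SE 0.10, adjusted p 0.00156), TBL37 (0.55, SE 0.10, adjusted p 0.00114), EXPA20 (0.47, SE 0.11, adjusted p 0.00898) and TBL35 (0.39, SE 0.11, adjusted p 0.0258), the last a gene of xylan acetylation. TBL36 read 12.31, 12.35 and 12.27 on the base arrays and 11.85, 11.73 and 11.68 in the internode, with no overlap. Without both wild-type replicate 2 arrays 7 members were called in place of 12, since EXPA20, GH9B5, GH9B7, TBL35 and TBL41 no longer passed (adjusted p 0.0767 to 0.105).

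The same question was asked of wox4-1 (3 arrays against 3). GH9B13 and TBL39 again rose, and EXPB3, a beta-expansin gene, EXPA16, EXPA20 and XTH32 rose with them. TBL32, of xylan acetylation, fell, as did TBL38 and GH9B5 by smaller amounts. In all 19 of 64 members (29.7%) were called, 16 higher and 3 lower, against 24.5% of all probe sets, 11.4% higher and 13% lower. Expansins rose in 6 of 18 and fell in none, XTH rose in 2 of 9, GH9 rose in 3 and fell in 1 of 15, and TBL rose in 5 and fell in 2 of 22. Median differences were 0.22 in expansins, 0.05 in XTH, 0.03 in GH9 and 0.10 in TBL genes, beside 0.04 over all probe sets.

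GH9B13 read 9.32, 9.86 and 9.73 at the wox4-1 base and 8.04, 8.68 and 8.03 in the internode, a rise of 1.38 (SE 0.17, adjusted p 7e-05) or 2.61-fold, and the highest internode array lay under the lowest base array. TBL39 read 7.27, 7.22 and 7.04 against 5.96, 6.24 and 5.86 and rose 2.23-fold (log2 1.16, SE 0.16, adjusted p 0.000171). EXPB3 read 10.86, 11.25 and 10.95 against 10.41, 10.41 and 10.01 and rose 1.67-fold (log2 0.74, SE 0.13, adjusted p 0.000946). No arrays of the compared groups overlapped in these 3 genes.

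EXPA16 rose by 0.69 (SE 0.17, adjusted p 0.0102), EXPA20 by 0.56 (SE 0.11, adjusted p 0.00258), TBL36 by 0.50 (SE 0.10, adjusted p 0.00291), TBL45 by 0.43 (SE 0.12, adjusted p 0.0153) and TBL37 by 0.37 (SE 0.10, adjusted p 0.0126). XTH32, of the XTH group known in Arabidopsis for xyloglucan hydrolysis, read 11.91, 11.89 and 11.83 at the base and 11.63, 11.34 and 11.50 in the internode. The groups did not overlap, and it rose by 0.39 (SE 0.09, adjusted p 0.00605). GH9B18 (0.41, SE 0.12, adjusted p 0.0247) and EXLA2 (0.35, SE 0.11, adjusted p 0.0383) rose as well. The TBL32 probe set, of a type that may also bind related transcripts, read 5.46, 5.67 and 5.57 at the base against 6.08, 6.28 and 5.86, a fall of 0.51 (SE 0.12, adjusted p 0.00672) with the groups apart. TBL38 fell by 0.33 (adjusted p 0.0374) with overlapping arrays, a call lost with each array centred on its median, and GH9B5 fell by 0.34 (adjusted p 0.0487).

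Of the 16 rises, 5 were in members near the low end of the scale: EXPA24, EXPB5, XTH26, GH9B6 and TBL20, by 0.22 to 0.34. XTH26 is known from root hairs. The low end of the whole scale moved in this comparison, with a median of 0.07 over the 7238 probe sets with a mean under log2 4 and 5.06% of them called higher, against a median of 0.01 and 1.69% in wild type. With the deposited values quantile-normalized again, an alternative chosen after the data were seen, EXPA24, XTH26, GH9B6 and TBL20 were no longer called, and the split changed from 16 higher and 3 lower to 12 and 5. With each array centred on its median it was 21 and 1. Over all probe sets the share of calls that were higher was 46.8% as deposited, 50.7% after quantile normalization and 67.5% after centring. The count was 12 without wox4-1 base replicate 3, without internode replicate 1 or without internode replicate 2.

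Both position comparisons use different arrays, so their values can be set against each other. Of the 64 members 42 had the same sign in both, against 16516 of 22746 probe sets. Across members the differences correlated with r of 0.80, against 0.85 over all probe sets. The members share 1 set of arrays per comparison, so they are not independent points. EXPA16, EXPA20, GH9B13, TBL36, TBL37 and TBL39 rose in both genotypes, and GH9B5 and TBL38 fell in both. These 8 are 66.7% of the 12 wild-type calls and 42.1% of the 19 wox4-1 calls, beside 70.6% and 56.9% over all probe sets. In wox4-1 the call of GH9B5 was lost in 12 of 21 alternatives, that of TBL38 in 6 and that of TBL37 in 2. In wild type GH9B5 was lost in 6 of 21 and EXPA20 in 1 of 20. The other shared calls were kept in all these alternatives, which do not include a minimum of 1.5-fold. TBL36 was under 1.5-fold in wild type (1.47) and wox4-1 (1.41), as were TBL37 in wild type (1.46) and EXPA20 in wox4-1 (1.47). None of the 64 was called in opposite directions, and only 5 of all 22746 probe sets were.

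**Figure D2:**
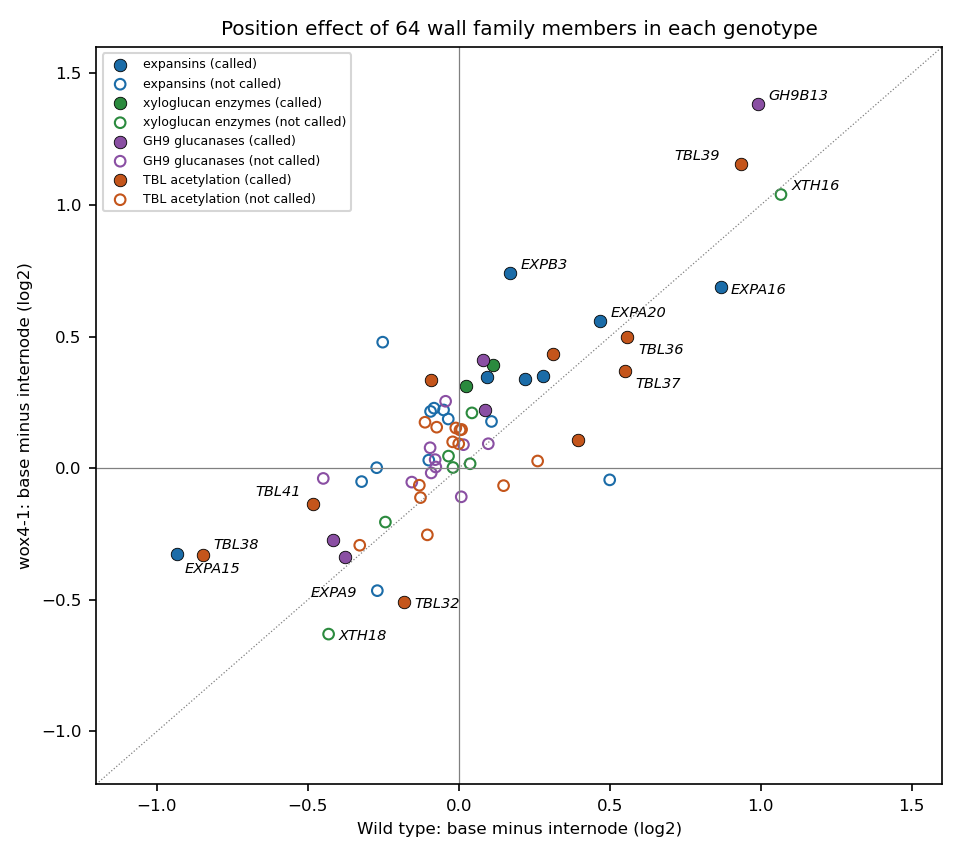
Base minus internode (log2) of each member in wild type (horizontal) and in wox4-1 (vertical), coloured by family, filled where called in either genotype, with the dotted line marking equal differences. GH9B13 and TBL39 lie at the upper right, TBL38 and EXPA15 at the left below 0. The sign is the same in both for 42 of 64 members, against 16516 of 22746 probe sets.

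Markers of other tissues moved along the stem too. All 4 measured photosynthesis genes of the cortex list (LHCB4.1, RCA, PRK and SBPASE, of 7 listed) fell at the base in both genotypes, and their mean level ranged over log2 10.62 to 10.76 at the wild-type base and 11.42 to 11.62 in the internode, and over 10.77 to 11 and 11.52 to 11.72 in wox4-1. SWEET11, the 1 phloem gene measured of 6, fell by 1.31 in wild type and 1.13 in wox4-1. The cambium gene MOL1 (1 of 6) rose by 0.62 and 0.51, and the mitotic kinase gene AUR2 (1 of 4) rose by 0.48 and 0.79. No gene of the xylem and fibre list or the epidermis list was measured by name. What part tissue composition has in the wall family values was not tested.

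The next comparison was between genotypes at the stem base (3 arrays of each), where the cambium is known to be active. Expansin genes EXPA15, EXPB3 and EXPB1 rose in the mutant, as did GH9B7, TBL38, TBL41 and TBL28, and TBL36 fell. Thus 8 of 64 members (12.5%) were called, 7 higher and 1 lower, against 5.04% of all probe sets, 2.52% higher and 2.51% lower. By family 3 of 18 expansins, 1 of 15 GH9 genes and 3 of 22 TBL genes rose, 1 TBL gene fell, and none of 9 XTH genes was called. The median difference was 0.14 over the members and 0.02 over all probe sets. Of the members 49 of 64 were positive, against 12303 of 22746 probe sets. Under a mean of log2 4 the median was 0.06 over all 7238 probe sets and 0.12 over the 26 members there. All 8 calls were among the 38 members with a mean of at least log2 4, of which 7 rose, against 3.2% of all probe sets at that level, and 1 fell, against 3.49%. This comparison shares its wild-type base arrays with position in wild type and its wox4-1 base arrays with position in wox4-1. The falls of EXPA15, GH9B7, TBL38 and TBL41 at the wild-type base and their rises here are therefore not independent results. The same holds for the rise of TBL36 at the wild-type base and its fall here. It also holds for the rises of EXPB3 here and at the base over the internode of wox4-1.

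EXPA15 read 11.21, 11.50 and 11.16 at the wox4-1 base against 10.58, 10.39 and 10.80 in wild type. Every mutant array lay above every wild-type array, and the gene rose 1.62-fold (log2 0.70, SE 0.12, adjusted p 0.00635). TBL38 read 8.85, 8.66 and 8.92 against 8.25, 8.07 and 8.30 and rose 1.51-fold (log2 0.60, SE 0.11, adjusted p 0.00716), with the groups likewise apart. EXPB3 read 10.86, 11.25 and 10.95 against 10.39, 10.34 and 10.58 and rose 1.50-fold (log2 0.58, SE 0.13, adjusted p 0.0226). In each of these 3 genes the lowest mutant array exceeded the highest wild-type array.

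TBL41 rose by 0.55 (SE 0.14, adjusted p 0.044, or 0.0503 with the replicate number within each genotype as a random block). EXPB1 rose by 0.48 (SE 0.11, adjusted p 0.027), a size that is uncertain near the low end. GH9B7 rose by 0.40 (SE 0.10, adjusted p 0.037) and TBL28, of xylan acetylation, by 0.31 (SE 0.08, adjusted p 0.0394). TBL36 read 11.92, 12 and 11.82 in the mutant and 12.31, 12.35 and 12.27 in wild type, and fell by 0.40 (SE 0.10, adjusted p 0.0389). It was the single called fall, and its groups did not overlap. EXLA3 differed by 1.05 (SE 0.29), the largest positive difference at the base, and missed the threshold (adjusted p 0.0563).

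These calls at the base rest on few arrays. EXPA15 and TBL38 were called in each of the 12 fits without 1 array, and the other 6 each lost the call in at least 1 of them. Leaving out wild-type base replicate 1, 2 or 3 turned the count of 8 into 2, 2 or 4, and leaving out replicate 2 or 3 of the wox4-1 base turned it into 5 or 3. The count was 4 without wild-type internode replicate 2 or wox4-1 internode replicate 1. It became 0 without both wild-type replicate 2 arrays (adjusted p 0.0527 for EXPA15 and 0.0626 for TBL38). With each array centred on its median 13 members were called higher and none lower, and TBL36 was no longer called. The same centring raised the median of all probe sets by 0.06 and turned their calls from 574 higher and 572 lower into 998 and 380.

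In the first internode none of the 64 members was called between genotypes, where 0.242% of all probe sets (55 of 22746) were called by limma, 0.11% higher and 0.132% lower, and 15 members (23.4%) had an unadjusted p under 0.05, against 8% of all probe sets. The smallest adjusted p were those of TBL25 (0.262) and TBL36 (0.274). TBL25, a gene of mannan acetylation, read 9.15, 9.33 and 9.34 in wox4-1 and 8.56, 8.90 and 9.11 in wild type (difference 0.42, SE 0.12, 95% interval 0.15 to 0.68). TBL36 read 11.39, 11.63 and 11.21 against 11.85, 11.73 and 11.68 (difference -0.34, SE 0.10). In both genes the arrays of the 2 genotypes did not overlap although the test was not passed. EXPA15 differed by 0.09 in the internode (95% interval -0.17 to 0.35), EXPB3 by 0.01 (-0.27 to 0.29) and TBL38 by 0.08 (-0.15 to 0.32).

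Whether a genotype effect differed between base and internode was tested directly. By limma no member passed (6, or 9.38%, at an unadjusted p under 0.05, against 8.03% of all probe sets), and 1 probe set of 22746 did (0.0044%). The largest effects relative to their error were those of EXPA15, whose genotype effect was larger at the base by 0.61 (SE 0.17, adjusted p 0.492), TBL38 by 0.51 (SE 0.15, adjusted p 0.493) and EXPB3 by 0.57 (SE 0.18, adjusted p 0.505). A call of these genes at the base and not in the internode therefore does not show a difference between the positions. All 8 members called at the base had the same sign in the internode, as had 88.1% of all probe sets called at the base. The internode comparison uses other arrays, although base and internode arrays of the same wild-type replicate deviated together.

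**Figure D3:**
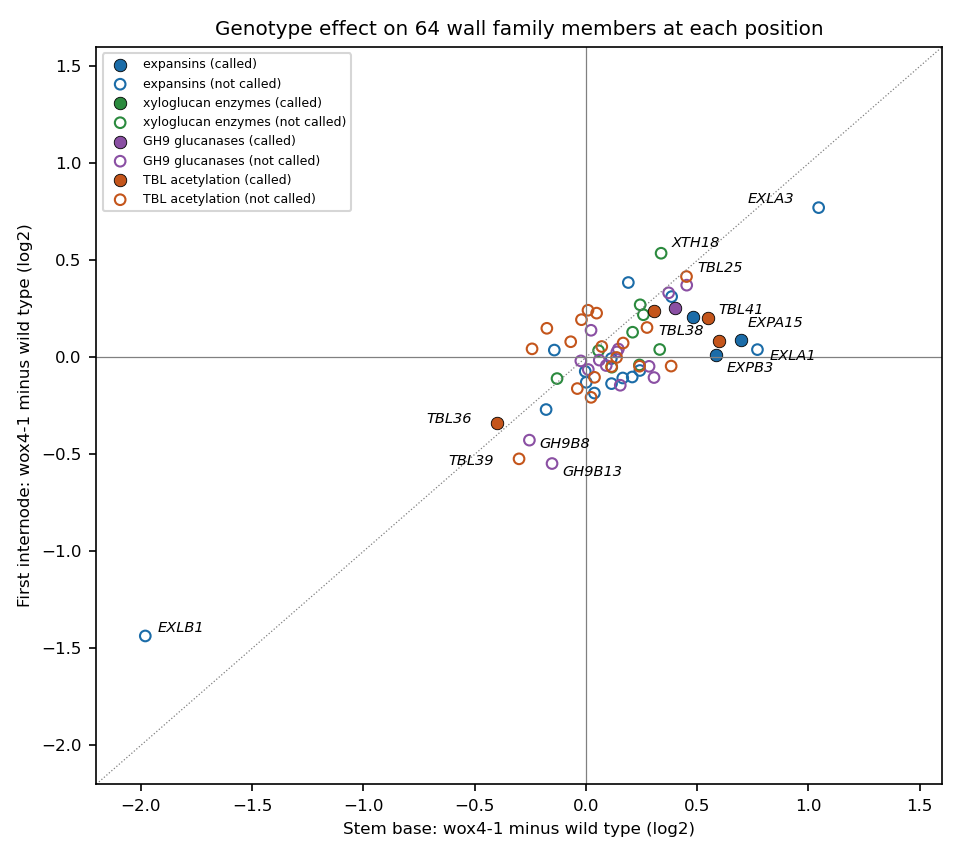
wox4-1 minus wild type (log2) of each member at the base (horizontal) and in the first internode (vertical), coloured by family and filled where called at either position, with the dotted line marking equal differences. EXPA15, TBL38 and EXPB3 lie near 0.6 to 0.7 at the base and near 0 in the internode, TBL36 lies below 0 at both, and EXLB1, which was not called, stands alone at the lower left.

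Averaged over both positions, 13 of 64 members (20.3%) differed between genotypes, 11 higher and 2 lower in wox4-1, against 5.68% of all probe sets, 2.89% higher and 2.79% lower. Expansins rose in 4 of 18, GH9 genes in 3 of 15 and TBL genes in 4 of 22, while 2 TBL genes fell and no XTH gene was called. The median was 0.08 over the members and 0.01 over all probe sets. All 13 had a mean of at least log2 4, where 3.97% of all probe sets were higher and 3.89% lower. Of the tissue markers, AUR2 fell in this comparison by 0.53 (SE 0.10, adjusted p 0.00617) and SBPASE rose by 0.29 (SE 0.08, adjusted p 0.0466), while the other 3 measured photosynthesis genes, SWEET11 and MOL1 were not called, and no marker was called between genotypes at the base or in the internode. Their part in the members' values was not tested. This average uses the same arrays as the comparisons within each position and is no independent test of them.

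EXLA3, GH9A3 and TBL25 were called in this comparison alone. EXLA2, GH9B5 and TBL39, called before between positions, were here called between genotypes. EXLA3 read 7.28, 6.26 and 6.46 at the wox4-1 base and 6.82, 6.42 and 6.76 in the internode, against 5.29, 5.97 and 5.60 and 5.30, 5.88 and 6.50 in wild type. It rose 1.88-fold (log2 0.91, SE 0.21, adjusted p 0.0206), the largest rise of a member, with overlap in the internode alone. The call of EXLA3 was lost in 4 of 20 alternatives. Its residual SD was 0.45, against 0.15 at the median of the members. TBL25 rose by 0.43 (SE 0.09, adjusted p 0.0103), from 8.53 ± 0.12 to 8.98 ± 0.06 at the base and from 8.86 ± 0.28 to 9.27 ± 0.11 in the internode (mean ± SD, n = 3).

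GH9A3, which encodes a membrane-anchored KORRIGAN relative, rose by 0.41 (SE 0.11, adjusted p 0.0373), GH9B5 by 0.35 (SE 0.08, adjusted p 0.023) and EXLA2 by 0.35 (SE 0.08, adjusted p 0.0223). EXPA15 (0.39), EXPB1 (0.34, of uncertain size near the low end), GH9B7 (0.33), TBL28 (0.27), TBL38 (0.34) and TBL41 (0.37) rose here as at the base. TBL36 fell by 0.37 (SE 0.07, adjusted p 0.00883), and TBL39 by 0.41 (SE 0.11, adjusted p 0.0499). TBL39 and GH9B13, which led the rise towards the base, thus had lower wox4-1 than wild-type means at both positions, although GH9B13 was not called (-0.35, SE 0.12, adjusted p 0.114).

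With the replicate number within each genotype as a random block (estimated correlation 0.116), 10 of these 13 were called, since GH9A3 (adjusted p 0.0642), TBL39 (0.0681) and TBL41 (0.0776) were lost. The count was 6 without wild-type base replicate 2, 8 without wild-type internode replicate 1, 6 without wox4-1 internode replicate 1, and 3 without both wild-type replicate 2 arrays.

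**Figure D4:**
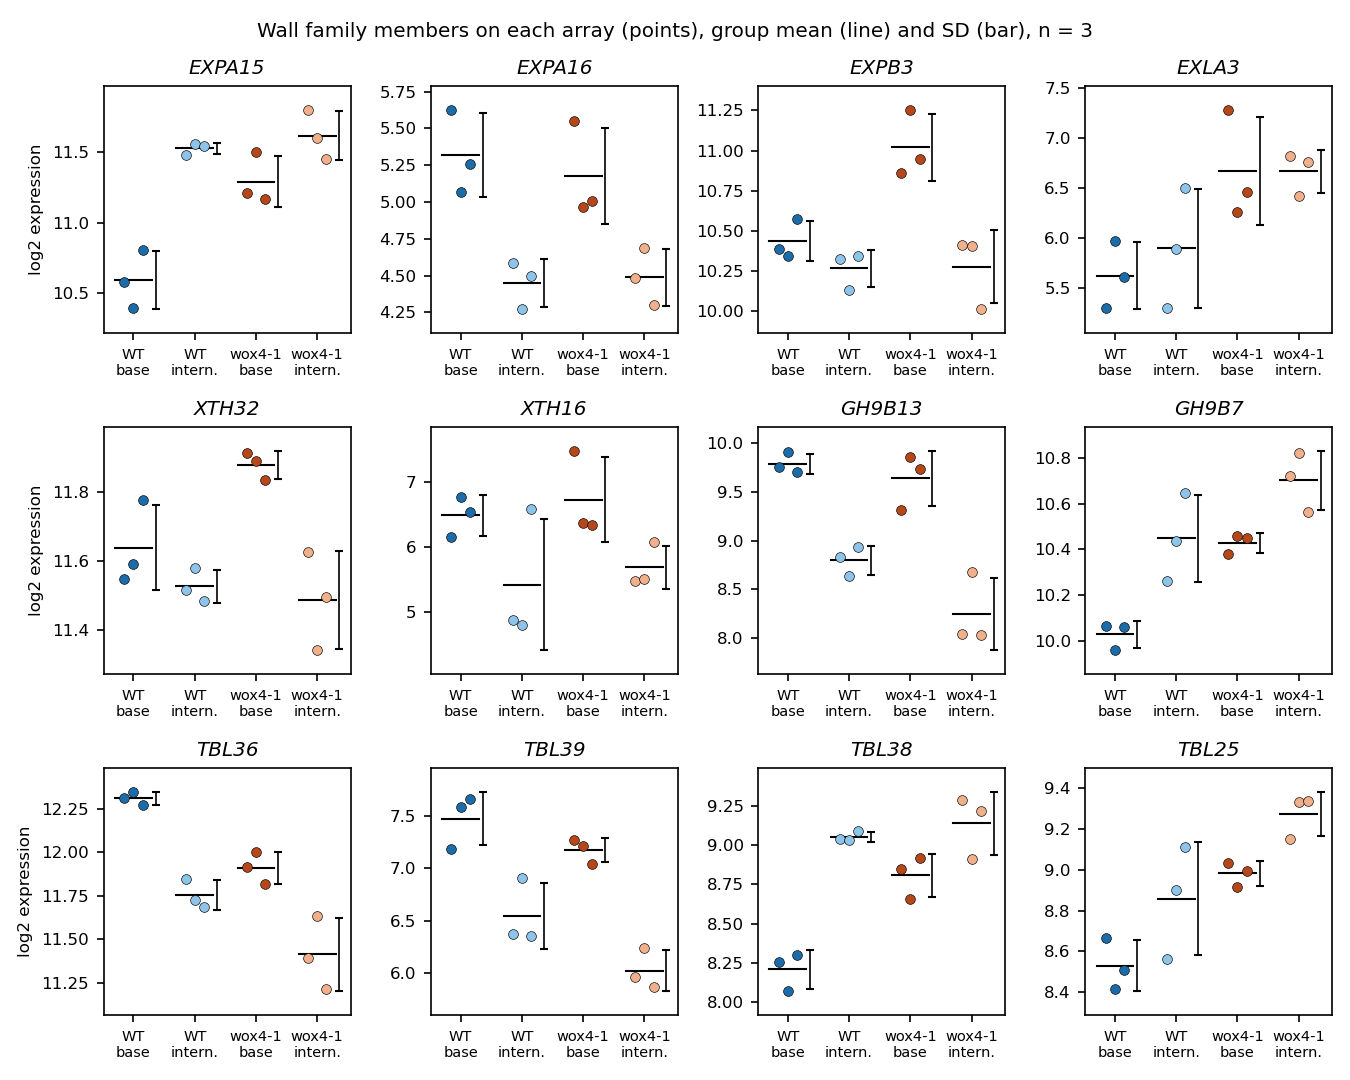
Log2 expression of 12 members on each array (points), with the group mean (line) and SD (bar, n = 3), for wild type and wox4-1 at the base and in the internode. GH9B13 and TBL39 are high at the base in both genotypes, EXPA15 and TBL38 are low at the wild-type base, TBL36 is lower in wox4-1 at both positions, and XTH16 and EXLA3 scatter widely within groups.

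Among the members not called were some with a high signal. EXPA4, an alpha-expansin gene with a mean of 10.73, had group means between 10.60 and 10.79 and was not called in any comparison, with a 95% interval of -0.26 to 0.19 for base minus internode in wild type and of -0.19 to 0.26 for the genotype difference at the base. GH9C2, of the class with a carbohydrate-binding module, had group means between 10.31 and 10.76 and differed by -0.45 between wild-type base and internode (95% interval -0.78 to -0.11, adjusted p 0.0593), with no overlap of the arrays although the test was not passed. The xylan gene TBL34 (group means 7.24 to 7.42) and the mannan gene TBL23 (7.50 to 7.69) were not called either.

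In all 36 members were called in no comparison, and 21 of them lay under log2 4. Among expansins these were EXLA1, EXLB1, EXPA4, EXPA7, EXPA8, EXPA9, EXPA18, EXPA21 and EXPB2, of which EXPA7 and EXPA18 are known from root hairs and read 3.65 and 3.30 on average. Among XTH they were XTH16, XTH18, XTH19, XTH20, XTH21, XTH29 and XTH33, and among GH9 genes GH9A4, GH9B8, GH9B11, GH9B12, GH9B16, GH9B17, GH9C1, GH9C2 and GH9C3. Among TBL genes they were TBL15, TBL16, TBL18, TBL19, TBL21, TBL23, TBL26, TBL30, TBL34, TBL42 and TBL43.

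The expansin-like and XTH genes included members with a wide spread between replicates. The residual SD was 0.15 at the median of the members and 0.13 over all probe sets, but over 0.5 in 4 of 64 members (6.25%), against 0.712% of all probe sets. These were EXLB1 (1.87), EXLA1 (0.80), XTH16 (0.64) and XTH18 (0.61), followed by XTH33 (0.45), which carries a membrane anchor, and EXLA3 (0.45).

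EXLB1 read 8.60 on wild-type base replicate 2 and 7.65 on wild-type internode replicate 2, against 3.31 to 4.13 on the other 10 arrays. Both high arrays carry the same replicate number. Its genotype difference of -1.98 at the base (SE 1.18, adjusted p 0.357) and of -1.44 in the internode (adjusted p 0.856) became -0.36 and -0.03 without these 2 arrays. Neither value passed with or without them.

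XTH16 was higher at the base by 1.07 in wild type (SE 0.41, adjusted p 0.0888) and by 1.04 in wox4-1 (SE 0.41, adjusted p 0.0819), in neither case past the threshold. Its internode values were 4.87, 4.81 and 6.58 in wild type, so that replicate 3 lay among the base arrays (6.15, 6.77 and 6.53). EXLA1 was also highest on that internode array (8.83, against 6.56 and 7.58), and so were EXLA3 (6.50), XTH18 (4.24) and XTH33 (5.26). Wox4-1 base replicate 1 was likewise the highest array of its group in all 5 genes.

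Across the 12 arrays the deviations of EXLA1, EXLA3, XTH16, XTH18 and XTH33 from their group means moved together, with pairwise r from 0.61 to 0.95, while EXLB1 gave r between -0.36 and 0.22 with them. The 5 were looked at because of their spread, and they share the arrays. EXLA1 and EXLA3 are neighbours in the TAIR10.1 gene order, and whether their probes pick up each other's transcript was not tested. XTH18 and XTH19 are also neighbours, and XTH19 stayed between 2.90 and 3.31 on all arrays.

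**Figure D5:**
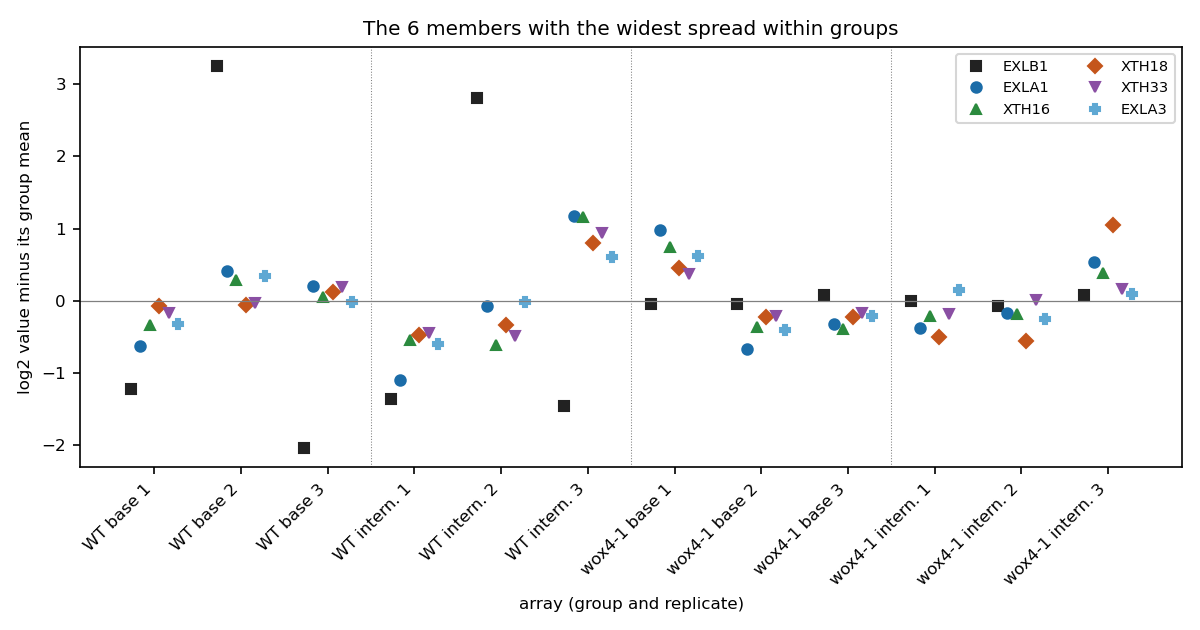
Deviation of the log2 value from its group mean on each of 12 arrays for the 6 members with the widest spread. EXLB1 stands apart on both wild-type replicate 2 arrays, and the other 5 all lie above their group means on wild-type internode replicate 3 and on replicates 1 (base) and 3 (internode) of wox4-1.

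A further 5 adjacent pairs lie among the members, of which 2 join GH9B16, GH9B17 and GH9B18 in a row of 3. TBL28 rose in wox4-1, while its neighbour TBL30, also of xylan acetylation, lay near the low end of the scale on all arrays and was not called. Neither TBL19 nor TBL21 was called, and GH9B11 and GH9B12 lay near the low end throughout. GH9B18 was the single member of its row called, higher at the base than in the internode of wox4-1.

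Few other genes of these pathways were measured by name. CSLC4, the xyloglucan backbone synthase and the 1 gene measured of 11 for xyloglucan synthesis and trimming, fell at the wild-type base by 0.60 (SE 0.11, adjusted p 0.002) and rose at the wox4-1 base over wild type by 0.46 (SE 0.11, adjusted p 0.0352). COB, needed for oriented cellulose deposition and the 1 gene measured of 16 for cellulose synthesis, fell at the wild-type base by 0.39 (SE 0.10, adjusted p 0.0125) and rose at the wox4-1 base by 0.40 (SE 0.10, adjusted p 0.0355). For both genes the fall and the rise use the same wild-type base arrays, so they are not independent results. Of 14 xylan synthesis genes 4 were measured. IRX10 of the xylan synthase complex fell at the wild-type base by 0.39 (SE 0.11, adjusted p 0.0248), and IRX15L rose at the wox4-1 base by 0.38 (SE 0.09, adjusted p 0.0281). IRX15 and IRX10L were not called in any comparison. Between positions in wox4-1 none of CSLC4, COB and the 4 xylan genes was called (adjusted p 0.178 to 0.785). AXY9, the 1 gene measured of 8 for wall acetylation outside the TBL symbols, was not called in any comparison (0.21 at the wox4-1 base, SE 0.08, adjusted p 0.158).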

How the data were processed

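The authors deposited log2 expression values per probe set, with RMA named as the tool in the submitters' processing notes; its version is not given in the sources used here. Arrays carried biotin-labelled RNA of pooled stem fragments of 0.5 cm, per the labels. The table holds 22810 probe sets, of which 64 controls were set aside. Of the rest, 13513 carry 1 gene in the platform annotation, 503 several, and 8730 are unnamed here. Values were used as deposited.

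In R 4.3.3 with limma 3.58.1, the 12 arrays were fitted together with 1 coefficient for each of the 4 groups (lmFit, then eBayes without trend), with p-values adjusted by Benjamini-Hochberg over 22746 probe sets and calls at 0.05. The fit was also run on simulated data with independent noise, which leaves out the shared deviations of wild-type arrays with equal replicate numbers. Alternatives were a replicate block (fixed or random), median centring, quantile normalization, a filter on dim probe sets, other eBayes options, array weights, a 1.5-fold minimum, fits to the compared groups alone and fits without single arrays or both wild-type replicate 2 arrays. The precision is limited by 3 arrays per group, and although the labels call the pools biological replicates, separate plantings are not stated, so p-values measure the spread between these arrays.

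Members and lists were chosen with earlier results of these data known. Named with values were all called members and the 3 brightest per family and members of related lists, called or with the smallest p; members with a wide spread were chosen after their values were seen. No sequences of members were used here. Equal replicate numbers were checked for pairing: in wild type all 3 base and internode pairs had r over 0.1 (0.294 to 0.592), and other pairs did not all pass.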

Additional observations from a re-analysis of the deposited data

How the results depend on the processing

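Of the 52 calls of members in the 6 comparisons, 17 kept direction and threshold in all alternatives other than the 1.5-fold minimum. The other 35 were lost in at least 1 of these, and none reversed. The 1.5-fold minimum is left out of these counts, and some of the 17 lie under it. The count of members called ranged over 9 to 14 (12 as reported) for base over internode in wild type when 1 array was left out, 12 to 22 (19) in wox4-1, 2 to 10 (8) for genotype at the base, 6 to 13 (13) for the average genotype effect, and stayed 0 in the internode and for the difference. Without both wild-type replicate 2 arrays the counts were 7 for position in wild type, 0 for genotype at the base and 3 for the average. Adding a minimum of 1.5-fold left 5, 4, 2 and 1 members for position in wild type, position in wox4-1, genotype at the base and the average. For genotype at the base, median centring gave 13, and a fit to the 2 compared groups gave 2. With the replicate number as a block across all arrays the counts were 12, 16, 7, 0, 0 and 13, and with it as a random block within genotype, chosen after seeing the data like the repeated quantile normalization, 14, 22, 7, 0, 0 and 10, where 48 of the 52 calls were kept and the 4 lost are named with the results. Among calls for position in wox4-1 the share higher was 84.2% as reported, 95.5% with median centring, 70.6% with quantile normalization and 61.5% with a filter on probe sets above the median level, beside 46.8%, 67.5% and 50.7% of all probe sets called in the first 3. For genotype at the base it was 87.5% as reported and 100% with median centring, beside 50.1% and 72.4%. Over all probe sets, calls for genotype at the base numbered 1146, and 282 without both wild-type replicate 2 arrays. Every member has 1 probe set, so choosing another could not be run. Low signal limits 26 members.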
